A study of Mus musculus with 4 samples.

Results

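The 9 genes described here, Zfp36, Zfp36l1, Zfp36l2, Btg1, Btg2, Dusp1, Dusp6, Ier5 and Otud1, encode feedback phosphatases and mRNA decay factors, together with Ier5 and Otud1. They were 9 of the 28692 genes in the count tables and were matched by symbol. The genes were chosen by their measured level and share of positive cells per library and by their link to cells with Fos or Egr1 transcripts, all known from earlier results of these data. Their differences between libraries, and between cells with and without Fos or Egr1, are therefore given as a description, with no p. Where Dixon's critical value is used on library levels, it is a yardstick to count genes, not a test of them.

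Single-cell RNA sequencing was performed on cortex and hippocampus of 4 male C57BL/6J mice at P90, 1 library per mouse. The labels name no transgene, and all mice received PBS through the tail vein, 24 h before sacrifice per the labels, while the study's methods give a shorter interval. Tissue was dissociated by Cold Dounce, a mechanical homogenization on ice without enzymes, and live CD45+/CD11b+ cells, the gate for microglia and other myeloid cells, were sorted by FACS. The labels form 1 group (n = 4), replicates 1 to 4 are names without order, and no second condition was analysed here. The study's methods state that sorting of the final animal was interrupted by a clog and that this sample spent extra time at room temperature. The supplement calls that animal Sample 4. It reports that cells with the study's ex vivo activation signature, which includes Fos and Dusp1, came almost only from that sample. The titles of the deposited samples carry other numbers, and the labels mention no clog, so they do not say which library this was (replicate 4 is only a name here), and its part in the levels below was not tested.

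Of 13138 barcodes, 13002 cells passed the filter of at least 400 genes and at most 10% mitochondrial transcripts, with 2576 to 3692 cells and a median of 1905 to 2936 unique molecular identifiers (UMIs, each a counted transcript molecule) per library. In each library, at least 3 different microglial markers, from a list with P2ry12, Cx3cr1 and Tmem119, were detected in 99.8% to 100% of cells. Neutrophil markers were at 0 in all libraries. The summed macrophage markers (all 8 detected) ranged from 12.9 to 83.1 CPM (UMIs scaled to a library total of 1000000) and were highest in replicate 4, and the summed monocyte markers (all 6 detected) were lowest in replicate 2, at 9.94 CPM, and highest in replicate 4. The barcode of 162 cells (1.246%) occurred in more than 1 library. In replicate 4, 34.6% of cells held a Fos or Egr1 UMI, against 1.54% to 4.96% in the other libraries, so this library stood apart.

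The proteins of these genes close the loop on stimulus-induced transcription. Zfp36 (tristetraprolin, TTP) and its relatives Zfp36l1 and Zfp36l2 are zinc finger proteins that bind AU-rich elements in mRNAs such as those of cytokines and recruit the CCR4-NOT deadenylase, which shortens the poly(A) tail and starts decay. Btg1 and Btg2 are antiproliferative proteins that bind the deadenylase subunits of the same complex. Dusp1 and Dusp6 are dual-specificity phosphatases that inactivate MAP kinases, Dusp1 in the nucleus with a preference for p38 and JNK, Dusp6 in the cytoplasm with a preference for ERK. Ier5 is an immediate early response protein, and Otud1 is a deubiquitinase of the OTU family. Fos and Egr1, transcription factors of the immediate early class, served as the marks of activated cells.

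The upstream sequences of 5 genes are shown because 4 of them (Dusp1, Btg2, Zfp36 and Otud1) had 1 library apart from the others, while Zfp36l1, a relative of Zfp36, differed least between libraries. Each line holds the 250 bases before the RefSeq transcription start (GRCm38.p6, 5′ to 3′ on the strand of the gene), with matches to the motifs searched in capitals. The Dusp1 sequence lies at chr17:26508473-26508722 (minus strand), Btg2 at chr1:134079156-134079405 (minus), Zfp36 at chr7:28379229-28379478 (minus), Otud1 at chr2:19657481-19657730 (plus) and Zfp36l1 at chr12:80113014-80113263 (minus).
Dusp1: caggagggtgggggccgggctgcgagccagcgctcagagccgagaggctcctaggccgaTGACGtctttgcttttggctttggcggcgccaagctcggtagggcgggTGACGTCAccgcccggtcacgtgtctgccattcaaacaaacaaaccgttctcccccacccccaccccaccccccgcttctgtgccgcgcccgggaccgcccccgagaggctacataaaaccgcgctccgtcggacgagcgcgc
Btg2: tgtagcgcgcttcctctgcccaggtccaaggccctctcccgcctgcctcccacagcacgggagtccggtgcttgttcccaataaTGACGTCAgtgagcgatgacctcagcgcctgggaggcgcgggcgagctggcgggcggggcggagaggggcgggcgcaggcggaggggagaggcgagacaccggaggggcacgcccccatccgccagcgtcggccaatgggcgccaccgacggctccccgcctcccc
Zfp36: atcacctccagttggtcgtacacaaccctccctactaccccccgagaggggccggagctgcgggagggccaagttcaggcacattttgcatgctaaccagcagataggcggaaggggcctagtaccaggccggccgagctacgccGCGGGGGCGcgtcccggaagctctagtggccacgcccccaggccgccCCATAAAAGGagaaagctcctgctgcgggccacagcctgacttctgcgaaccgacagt
Otud1: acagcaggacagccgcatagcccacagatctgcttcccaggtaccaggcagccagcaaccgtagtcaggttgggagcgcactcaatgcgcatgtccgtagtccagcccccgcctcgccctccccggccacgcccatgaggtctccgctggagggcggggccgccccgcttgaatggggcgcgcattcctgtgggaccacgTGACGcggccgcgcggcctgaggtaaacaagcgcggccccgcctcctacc
Zfp36l1: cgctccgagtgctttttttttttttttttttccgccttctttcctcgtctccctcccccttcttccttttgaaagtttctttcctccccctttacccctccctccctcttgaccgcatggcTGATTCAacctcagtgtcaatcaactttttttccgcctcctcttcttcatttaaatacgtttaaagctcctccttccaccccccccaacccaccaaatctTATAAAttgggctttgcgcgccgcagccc

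Motifs were searched on both strands in the 8 of 9 genes with a promoter entry. The full cyclic AMP response element (CRE, TGACGTCA), the site of CREB family factors, occurred upstream of Btg2, 166 to 159 bases before the start, and of Dusp1, 143 to 136 bases before it. It was present in 1.55% of the 32851 upstream sequences. The shorter CRE core TGACG, which the full element contains on both strands, occurred in 17.8% of all sequences, and among the genes without the full element in Btg1 and Otud1. Dusp1 held a further core 191 to 187 bases before the start. Zfp36 held the EGR motif GCGGGGGCG, 105 to 97 bases before the start (2.57% of all sequences), and a CArG box, the site of serum response factor, 58 to 49 bases before it (1.47%). The AP-1 motif TGANTCA was found in Zfp36l1 (6.75%), and the TATA box TATAAA in Zfp36l1 and Btg1 (12.4%). Neither Dusp6 nor Ier5 held any of these letters. A match describes the sequence and shows no binding.

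Among the decay factors that bind AU-rich elements, Zfp36 differed most between libraries. Its level was 81.1, 79.9, 68.8 and 180 CPM in replicates 1 to 4, so replicate 4 stood above the other libraries, whose neighbouring 95% Poisson intervals overlapped. The highest library was 2.62 times the lowest. Zfp36l1 showed 237, 236, 231 and 253 CPM, a ratio of 1.09, and all neighbouring libraries had overlapping intervals. Zfp36l2 showed 388, 325, 362 and 428 CPM, a ratio of 1.31. Its replicate 4 was highest, at 1.10 times replicate 1, and their intervals (414 to 441 and 374 to 403 CPM) did not overlap. The 3 relatives therefore differed in their spread over these mice. Intervals here and below cover counting error only.

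The BTG pair was similarly divided. Btg2 was at 372, 382, 345 and 765 CPM, 2.22 times higher in the highest than in the lowest library, with replicates 1 to 3 close together and replicate 4 apart. Btg1 was at 509, 495, 554 and 622 CPM (1.26 times), again highest in replicate 4 but within a graded series. The other tested genes of the BTG/TOB list did not follow: Btg3 was highest in replicate 3, at 13.9 CPM.

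Dusp1 had the widest spread of the 9 genes and rested on the fewest UMIs. Its level was 5.10, 4.79, 6.505 and 38.8 CPM, from 36, 54, 38 and 349 UMIs, and the highest library was 8.09 times the lowest. Replicates 1 to 3 did not differ beyond their intervals, which spanned 3.60 to 8.93 CPM from replicate 2 to replicate 3, and the interval of replicate 4 was 34.8 to 43.1 CPM. The mean was 13.8 ± 16.7 CPM (SD, n = 4), against 239 ± 9.38 CPM for Zfp36l1. Dusp6 was at 315, 390, 481 and 535 CPM, and no 2 neighbouring libraries had overlapping intervals, which describes a graded spread (1.70 times) rather than 1 library apart. Dusp7, another phosphatase of this class, was lowest in replicate 4, at 57.4 CPM. Of the 10 MAP kinase phosphatases listed, 3 passed the filter of a mean of at least 10 CPM, and Dusp1 passed it only through replicate 4: without that library its mean was 5.47 ± 0.91 CPM (SD, n = 3).

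Ier5 was at 304, 354, 318 and 460 CPM (1.52 times) and Otud1 at 31.5, 32.5, 34.4 and 55.8 CPM (1.77 times). Otud1 counted only 1291 UMIs in all, and its replicates 1 to 3 overlapped while replicate 4 was separate. Ier2, a paralogue of Ier5 and an immediate early gene, was at 22.0, 18.5, 17.8 and 95.8 CPM, a ratio of 5.38.

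All 9 genes passed the level filter, Dusp1 only through replicate 4. All were highest in replicate 4, as were 31.8% of the 7656 genes that averaged at least 10 CPM. The median ratio of the highest to the lowest library was 1.70 for the 9 genes and 1.19 over all genes tested, of which 0.967% had a ratio of 2 or more. By the gap between the extreme library and its nearest neighbour relative to the range of log2(CPM + 1), compared with Dixon's 95% critical value for 4 samples, 4 of the 9 genes (Zfp36, Btg2, Dusp1 and Otud1) had 1 library apart. This held for 4.62% of all genes tested, 354 of 7656. Since the levels chose the genes, nothing is read from this count. Without replicate 4 the ratio of the highest to the lowest library was 1.36 for Dusp1, 1.18 for Zfp36, 1.11 for Btg2 and 1.09 for Otud1. The count was 2 of 9 (Dusp1 and Otud1) with TMM factors, beside 4.99% of all genes tested. It was also 2 of 9 (Btg2 and Dusp1) among cells with at least 1000 genes, beside 4.74%. Without macrophage- or monocyte-marked cells it was 3 of 9, beside 4.68%, and Dusp1 fell short at 0.825. With cells holding MHC class II transcripts left out as well it was 3 of 9, beside 4.74%, with Dusp1 at 0.823. In the cells kept in these last cases Dusp1 was still highest in replicate 4, at 36.0 and 35.6 CPM, 9.01 and 8.86 times the lowest library. Zfp36 was only just past the limit in all cells, at 0.830. The plot of levels shows the separation of replicate 4 for these genes and the smaller steps of the other genes.

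**Figure D1:**
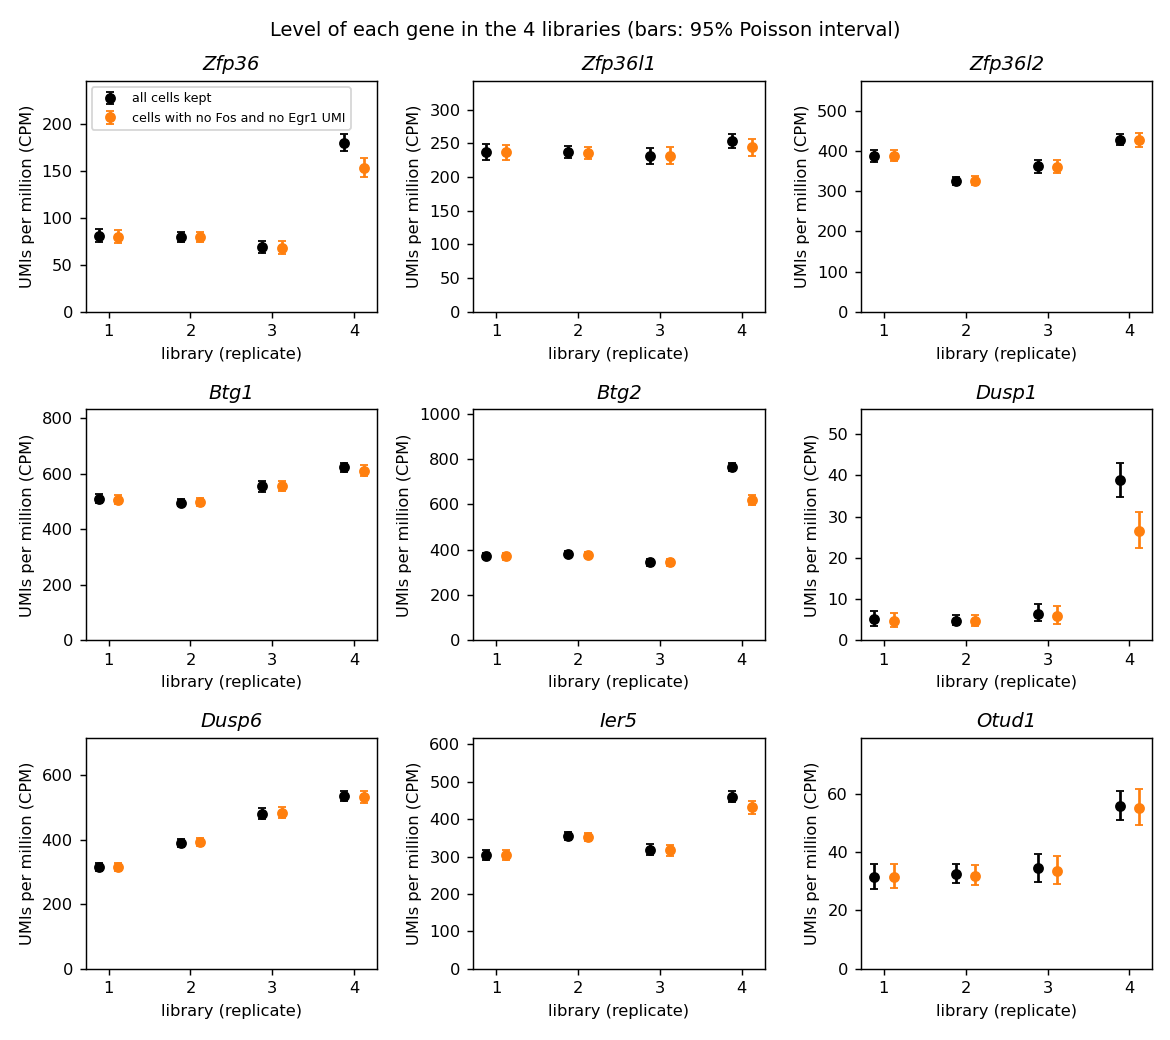
Level (CPM, y axis from 0) of each gene in the 4 libraries; black points are all cells kept, orange points only cells with no Fos and no Egr1 UMI, and bars are 95% Poisson intervals. Replicate 4 is highest for all 9 genes in both sets of cells, by 8.09 times over the lowest library for Dusp1 and 1.09 times for Zfp36l1 in all cells.

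Genes of the machinery around these factors had smaller ratios. Of the 12 tested genes of the CCR4-NOT and PAN deadenylases, 4 were highest in replicate 4, and the median ratio of highest to lowest library was 1.23. Cnot3, at 87.7, 65.8, 84.1 and 62.2 CPM, had the widest spread of them, at 1.41. The 6 tested decapping genes had a median ratio of 1.18 and the 11 tested further regulators of AU-rich or stem-loop mRNAs, such as Elavl1 (HuR, an mRNA-stabilizing protein) and Celf1, 1.19, with 2 genes of each list highest in replicate 4. The 10 tested MAP kinases, the substrates of Dusp1 and Dusp6, had a median ratio of 1.16, and Mapk14 (p38α) was at 76.4, 82.9, 83.4 and 88.8 CPM. The immediate early transcription factors had a median ratio of 1.71, and 8 of 9 tested were highest in replicate 4: Fos was at 6.52, 13.4, 10.6 and 142 CPM and Egr1 at 3.68, 6.92, 6.16 and 105 CPM, so that Egr1, like Dusp1, passed the level filter only through replicate 4. Of the mRNAs known as TTP targets, only Ccl3 and Il6 passed the level filter, and Ccl3, a chemokine, was at 16.3, 17.5, 41.8 and 51.3 CPM.

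**Figure D2:**
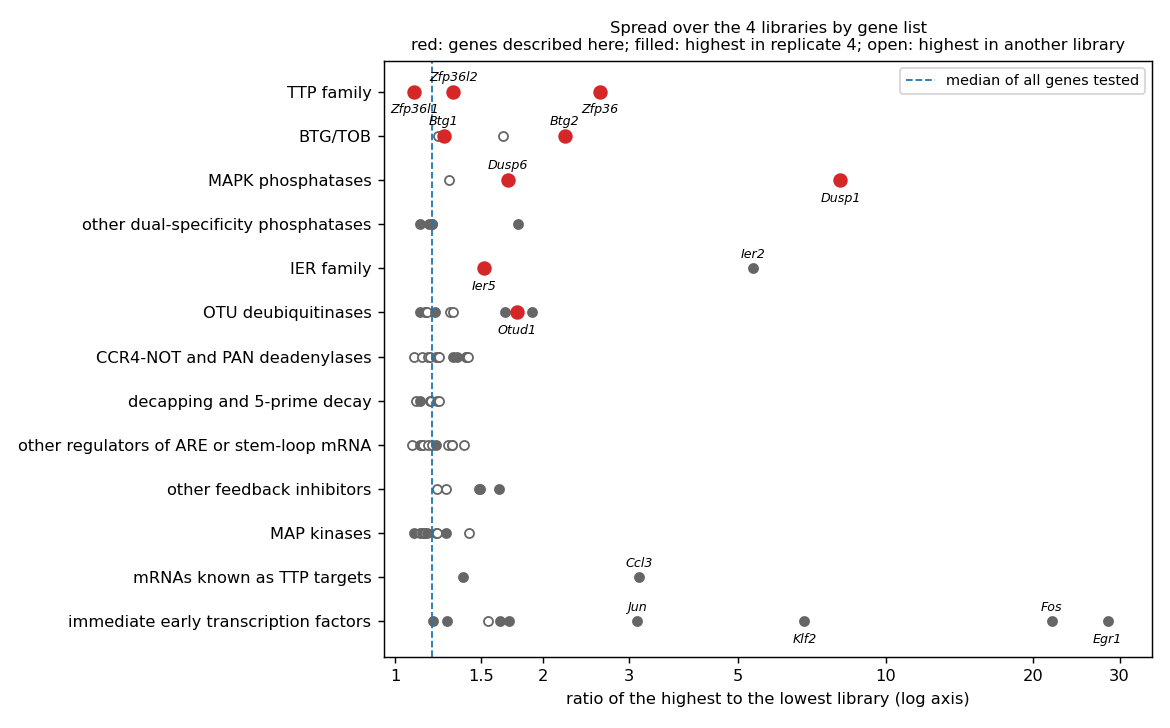
Ratio of the highest to the lowest library (log axis) for each tested gene, by list; red points are the genes described here, filled points were highest in replicate 4 and open points in another library, and the dashed line is the median of all genes tested (1.19). Dusp1 (8.09) and Ier2 (5.38) lie far to the right of the deadenylase, decapping and MAP kinase genes, whose ratios stay at or below 1.41.

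Shares of positive cells were compared after each cell was thinned to 1000 UMIs, since depth sets how often a transcript is seen. Btg2 was found in 30.8%, 29.8%, 29.0% and 47.1% of cells in replicates 1 to 4, and without thinning in 48.6%, 62.4%, 50.4% and 74.6%. Zfp36 was found in 7.70%, 7.74%, 5.78% and 15.2% of thinned cells and Dusp1 in 0.401%, 0.491%, 0.602% and 3.70%. The exact Clopper-Pearson 95% intervals of replicate 4 were 45.3% to 48.9% for Btg2 and 3.06% to 4.43% for Dusp1, above those of the other libraries, which reached at most 32.3% and 0.991%. Otud1 was found in 3.15%, 2.998%, 3.45% and 5.45%. Zfp36l1 changed little, from 21.3% to 22.5%. Btg1 ranged from 38.7% to 45.2%, Zfp36l2 from 27.2% to 34.7%, Ier5 from 26.1% to 34.7% and Dusp6 from 25.6% to 41.8%. Replicate 4 had the highest share for all 9 genes after thinning. No cell type known to lack these transcripts was captured, so no background share from free RNA is given.

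Next, cells with at least 1 Fos UMI (35, 114, 52 and 643 cells in replicates 1 to 4) were compared with the remaining cells of the same library. UMIs were summed per library and class, and edgeR's quasi-likelihood model with library as a term was fitted over 7655 genes. Because the 9 genes were chosen by their link to Fos- and Egr1-positive cells, their values in these comparisons are a description and carry no p. Of the 9 genes, 1 (Dusp1) met the study's limits (adjusted p by Benjamini-Hochberg under 0.05 and absolute log2 fold change above 0.58) on the higher side, where 0.457% of all genes tested did, and 0 did on the lower side, where 0% of all genes did. At an unadjusted p under 0.05, 448 genes differed. With DESeq2 0 of the 9 genes met the limits in either direction, but it gave no adjusted p for Dusp1, Zfp36, Zfp36l1 and Otud1. Nothing is read from these counts for the 9 genes. A cell without a Fos UMI may still express Fos, since the transcript was rare at this depth.

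Dusp1 was at 39.5, 7.36, 34.6 and 74.5 CPM in the Fos-positive cells and at 4.73, 4.70, 5.79 and 28.4 CPM in the remaining cells, with the higher value in the Fos-positive cells of 4 of 4 libraries. Only 3, 3 and 5 Dusp1 UMIs lay behind the Fos-positive values of replicates 1 to 3, against 151 in replicate 4. The log2 fold change was 1.52 ± 0.25 (SE), and 1.95 ± 0.76 (SE) without replicate 4. The 10 genes with the largest fold changes in Fos-positive cells included the MHC class II genes H2-Eb1, H2-Aa and Cd74 and the macrophage or monocyte markers Plac8, Mrc1 and Ccr2, so markers of other myeloid cells moved with this class. Without cells marked by macrophage or monocyte genes, the Dusp1 log2 fold change was 1.35 ± 0.20 (SE), and it was 1.35 ± 0.21 (SE) when cells with MHC class II transcripts were left out as well.

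Zfp36 was at 132, 93.3, 83.0 and 241 CPM in Fos-positive cells and at 80.5, 79.4, 68.5 and 162 CPM in the remaining cells, with the higher value in the Fos-positive cells of 4 of 4 libraries. Its log2 fold change was 0.53 ± 0.094 (SE), and 0.34 ± 0.22 (SE) without replicate 4. Btg2 was at 421, 420, 346 and 1062 CPM in Fos-positive cells and at 371, 381, 345 and 679 CPM in the remaining cells, with a log2 fold change of 0.38 ± 0.094 (SE), and of 0.46 ± 0.079 (SE) without macrophage- or monocyte-marked cells. In replicates 1 to 3 the Btg2 level in Fos-positive cells was 1.13, 1.103 and 1.003 times that in the remaining cells, and in replicate 4 it was 1.56 times. Without replicate 4 the log2 fold change was 0.12 ± 0.12 (SE).

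The other 6 genes gave log2 fold changes between -0.04 and 0.18. Zfp36l1 was at 0.18 ± 0.079, Ier5 at 0.16 ± 0.082, Btg1 at 0.08 ± 0.082 and Zfp36l2 at 0.01 ± 0.082 (SE). Otud1, although 1 library stood apart for its level, was at -0.02 ± 0.17, with 52.8 CPM in Fos-positive and 56.6 CPM in remaining cells of replicate 4. Dusp6 was at -0.04 ± 0.080, with 542 against 533 CPM in replicate 4. The median over the 9 genes was 0.16 and that over all genes tested -0.00013.

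For cells with at least 1 Egr1 UMI (22, 73, 33 and 685 cells), 0 of the 9 genes met the limits on the higher side, where 0.131% of all genes tested did, and 0 on the lower side, where 0.0131% did. At an unadjusted p under 0.05, 142 genes differed in edgeR, and with DESeq2 0 of the 9 genes met the limits. These values are a description as well. Btg2 was at 498, 607, 411 and 1041 CPM in Egr1-positive cells and at 371, 377, 344 and 679 CPM in the remaining cells, with the higher value in the Egr1-positive cells of 4 of 4 libraries. Its log2 fold change was 0.55 ± 0.097 (SE), 0.60 ± 0.072 (SE) without macrophage- or monocyte-marked cells, and 0.48 ± 0.15 (SE) without replicate 4. Dusp1 was at 0.81 ± 0.32 and Zfp36 at 0.37 ± 0.14 (SE). Ier5 was at 0.24 ± 0.10, Otud1 at 0.37 ± 0.22 and Dusp6 at -0.13 ± 0.10 (SE), and Zfp36l1, Zfp36l2 and Btg1 lay between 0.01 and 0.06. Whether a gene's difference was larger with Fos than with Egr1 was not tested.

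Cells in which both transcripts were seen allow a finer look within replicate 4, where 2065 cells held neither, 858 held 1 of the pair and 235 held both. Btg2 was at 619, 933 and 1251 CPM over these 3 sets. Dusp1 was at 26.6, 47.5 and 97.4 CPM, and Zfp36 at 154, 214 and 257 CPM. Ier5 followed with smaller steps, at 431, 493 and 558 CPM. Dusp6 stayed at 532, 541 and 540 CPM, Zfp36l2 at 426, 428 and 435 CPM, Btg1 at 611, 639 and 648 CPM and Otud1 at 55.2, 57.8 and 53.2 CPM, with overlapping intervals. Zfp36l1 was at 244, 259 and 295 CPM, and the intervals of the first and last of these sets just missed each other. These are values of 1 library, without replicate error. The median depth rose from 2707 to 2936.5 and 3132 UMIs per cell over the sets, and its part in the steps was not tested.

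**Figure D3:**
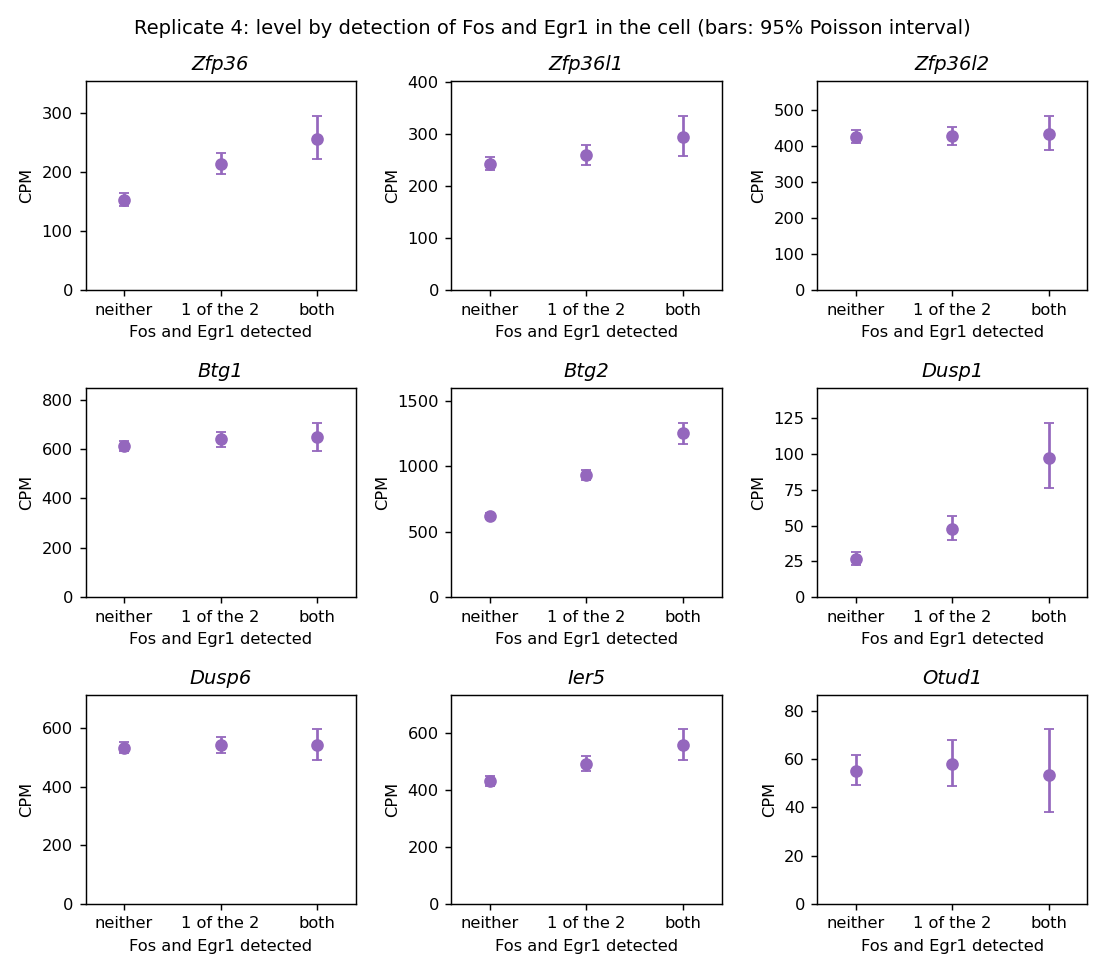
Level (CPM, y axis from 0) in cells of replicate 4 with neither Fos nor Egr1, with 1 of them and with both; bars are 95% Poisson intervals. Btg2 rises from 619 to 1251 CPM and Dusp1 from 26.6 to 97.4 CPM, whereas Dusp6, Zfp36l2, Btg1 and Otud1 have overlapping intervals.

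Cells in which neither transcript was counted still carried the difference between libraries. Some of them may express Fos or Egr1, since detection depends on depth. In replicate 4, Fos was seen in 20.4% of cells, and in 10.2% after thinning to 1000 UMIs. In cells with no UMI of either, Zfp36 was at 80.0, 79.3, 68.4 and 154 CPM, Btg2 at 370, 376, 344 and 619 CPM and Dusp1 at 4.76, 4.61, 5.87 and 26.6 CPM. Relative to the mean of the other libraries, replicate 4 was 2.02 times higher for Zfp36 (2.35 in all cells), 1.70 times for Btg2 (2.09) and 5.24 times for Dusp1 (7.09). Otud1, at 1.70 in both sets, gave the same ratio with and without the Fos- and Egr1-positive cells. Those cells held 37.8% of the UMIs of replicate 4, and 57.3% of its Dusp1, 49.6% of its Btg2, 46.9% of its Zfp36 and 38.4% of its Otud1 UMIs.

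In addition, 3 further classes of cells were compared in the same way. In cells with at least 2 UMIs of the chemokines Ccl3 and Ccl4 (15, 35, 23 and 132 cells), 1 of 9 genes was called (by the same limits), Dusp1, with a log2 fold change of 1.49 ± 0.40 (SE; adjusted p = 0.029, edgeR), beside 0.745% of genes called in either direction. Only 1, 4 and 2 Dusp1 UMIs lay in the marked cells of replicates 1 to 3, against 35 in replicate 4. This call was lost without replicate 2, 3 or 4, with log2 fold changes of 1.21, 1.40 and 2.55 (adjusted p = 0.11, 0.11 and 0.33, edgeR). Ier5 gave 0.53 ± 0.14 (SE; adjusted p = 0.016, edgeR), under the fold limit. Egr1, Junb and Klf2 were called higher in these cells, so the class overlaps with the Fos and Egr1 link that chose the genes. The p of Dusp1 and Ier5 here is therefore not independent of that choice. Dusp1 also passed the level filter only through replicate 4, which limits its p in all 3 classes. In cells with at least 3 UMIs of interferon-induced genes (47, 55, 25 and 40 cells), 0 of 9 genes were called, beside 1.33% of all genes, and Dusp1 was at 1.62 ± 0.45 (SE; adjusted p = 0.066, edgeR). In cells with at least 3 UMIs of macrophage and monocyte markers (16, 17, 16 and 42 cells), 1 of 9 was called, beside 7.61% of all genes: Dusp1, at 2.93 ± 0.40 (SE; adjusted p = 8.317e-11, edgeR). Dusp1 was at 156, 14.4, 30.7 and 181 CPM in these cells and at 4.00, 4.67, 6.09 and 36.0 CPM in the remaining cells, higher in 4 of 4 libraries. Only 8, 2 and 3 Dusp1 UMIs lay behind the values of the marked cells in replicates 1 to 3. Fos was called higher in the marked cells too, so this class also overlaps with the link that chose the genes. The marked cells supplied 31 of the 349 Dusp1 UMIs of replicate 4, where 1.33% of cells were so marked, against 0.447% to 0.621% in the other libraries.

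**Figure D4:**
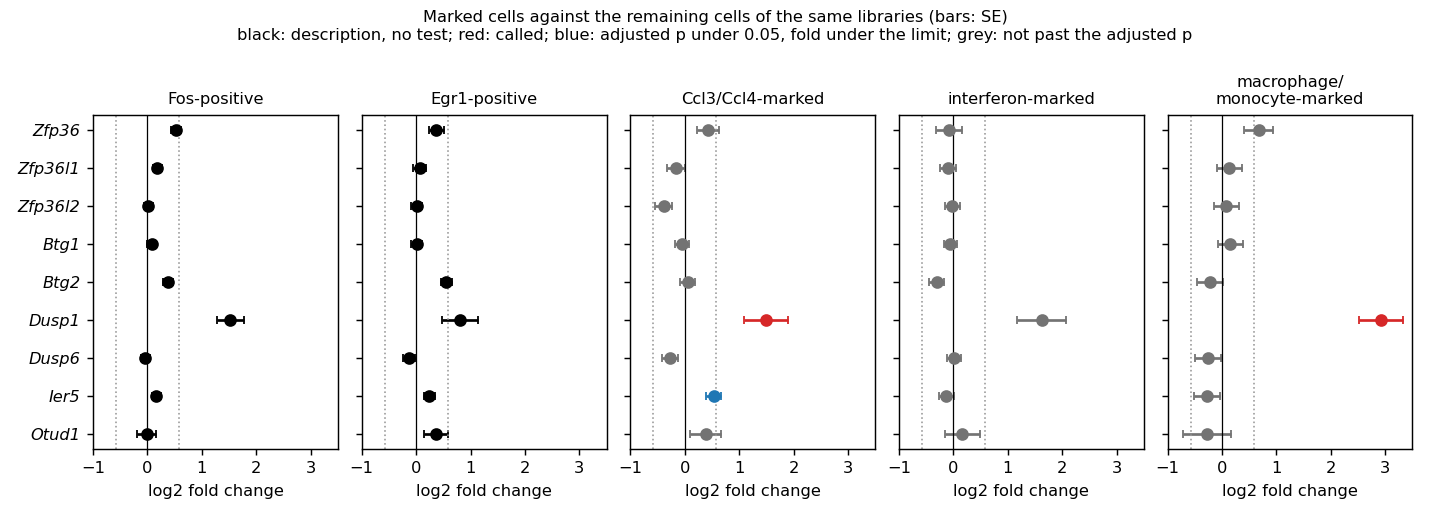
Log2 fold change of each gene in 5 classes of marked cells against the remaining cells of the same libraries, with SE; black points (Fos- and Egr1-positive cells) are a description without a test, red points were called, the blue point passed the adjusted p but not the fold limit (dotted lines), and grey points did not pass the adjusted p. Dusp1 has the largest value in each class (1.52, 0.81, 1.49, 1.62 and 2.93) and is the gene called, in Ccl3/Ccl4-marked and in macrophage- or monocyte-marked cells. It passed the level filter only through replicate 4, and both classes overlap with the link that chose the genes. Its calls are therefore not independent of that choice, and both were lost with cells thinned to 1000 UMIs.

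The related lists were read in the same fits, where 0.457% of all genes tested were called higher in Fos-positive and 0.131% in Egr1-positive cells. In Fos-positive cells 0 of the 12 tested deadenylase genes, 0 of 6 decapping genes, 0 of 11 further regulators of AU-rich or stem-loop mRNAs, 0 of 10 MAP kinases and 0 of 5 other dual-specificity phosphatases were called by edgeR, and the same counts were 0 in Egr1-positive cells. At those shares, lists of this size would rarely hold a called gene, so nothing is read from these counts of 0. Ier2 was called in both, at 1.08 ± 0.13 and 1.002 ± 0.19 (SE; adjusted p = 2.349e-06 and 5.393e-05, edgeR). Without replicate 4 it was called in neither, at 0.68 ± 0.41 and 1.51 ± 0.46 (SE; adjusted p = 0.9997 and 0.30, edgeR). Among immediate early transcription factors, Egr1, Jun and Klf2 were called in Fos-positive cells (3 of 8 tested) and Fos, Jun, Junb and Klf2 in Egr1-positive cells (4 of 8). Fos and Egr1 are the link that chose the genes, and the lists were chosen with earlier results of these data known. The p of list genes, Ier2 and Ccl3 included, is therefore not independent of that choice, and their calls are a description. Egr1 also passed the level filter only through replicate 4. Without replicate 4, Klf2 (1.42 ± 0.31, SE; adjusted p = 0.021, edgeR) was still called in Fos-positive cells, and Jun and Junb (0.65 ± 0.16 and 0.68 ± 0.15, SE; adjusted p = 0.014 and 0.0048, edgeR) in Egr1-positive cells, while Egr1 and Jun in the first and Fos and Klf2 in the second were not. Ccl3 was called in both, at 1.65 ± 0.36 and 2.46 ± 0.20 (SE), and remained called without replicate 4, at 2.58 ± 0.41 and 3.64 ± 0.26 (SE).

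Across single cells, no gene tracked the 9 genes closely. Among genes averaging at least 50 CPM, the highest mean Pearson's r over the 4 libraries, in cells thinned to 1000 UMIs, was 0.075, between Btg2 and Jun, with 0.19 in replicate 4. For Zfp36 the nearest gene was U2af2, at 0.032. These are descriptions over sparse counts that share library and depth. In the GENCODE annotation of GRCm38, Btg2 spans chr1:134075170-134079120 and Ier5 chr1:155096361-155099636, Otud1 chr2:19657752-19660583, Zfp36 chr7:28376784-28380253, Btg1 chr10:96617006-96622809 and Dusp6 chr10:99263231-99267489. Zfp36l1 spans chr12:80107754-80113013, Dusp1 chr17:26505590-26562128 and Zfp36l2 chr17:84183931-84187947. Dusp1 overlaps Ergic1, a gene of the opposite strand with 185 to 364 UMIs per library.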

How the data were processed

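The deposited files are UMI counts per gene and cell, 1 matrix per library, which the authors made from 10x Genomics 3′ version 2 libraries with bcl2fastq and Cell Ranger 2.2.0 against mm10 (GRCm38), reference annotation of filtered Ensembl. The raw counts are not normalized, and library totals were 5867333 to 11275195 UMIs. Barcodes with fewer than 400 genes or above 10% mitochondrial UMIs were left out, and no doublet caller was run. The members and lists were chosen with earlier results of these data known. CPM is UMIs scaled to 1000000 per library or class. Per library and class, UMIs were summed and tested with edgeR 4.0.16 (glmQLFit, glmQLFTest; TMM factors, library as a term; R 4.3.3) over genes averaging at least 10 CPM, leaving out the genes that define a class. SE is the absolute log2 fold change divided by the square root of F. The fits were tested on simulated data. DESeq2 1.42.0 and 95% exact Poisson intervals were computed beside them. Each gene was named because it is a member, among the 3 of its list with the widest spread, or called with Fos or Egr1; Mapk14, Elavl1, Btg3, Dusp7 and the leading genes of the Fos class were named after their values were seen. The 4 mice cannot reach p under 0.05 in an exact sign permutation test, where the smallest is 0.125, so levels carry no p. Promoter sequences are from RefSeq. 1 listed microglial marker was left out of the marker check and is not reported here.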

Additional observations from a re-analysis of the deposited data

Results flagged for a closer look

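Replicate 4 lay apart from the other libraries by the gap to its nearest neighbour relative to the range, above Dixon's 95% critical value for 4 samples, for the levels of Zfp36 (0.830), Btg2 (0.871), Dusp1 (0.866), Otud1 (0.845) and Egr1 (0.831), all on the log2(CPM + 1) scale. In cells with no Fos and no Egr1 UMI the same held for Btg2 (0.849), Dusp1 (0.873) and Otud1 (0.890). Among shares of thinned cells it held for Btg2 (0.904) and Dusp1 (0.939). It also held for the shares of cells that were Fos-positive (0.891), Egr1-positive (0.935), positive for either (0.897) and marked by Ccl3 and Ccl4 (0.859). In all of these replicate 4 was the highest. Chance flags about 1 in 20 groups of 4 values, these values share cells and genes, and the genes were chosen with the levels known. The gaps describe these values and test nothing about the genes.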

How the results depend on the processing

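Replicate 4 supplied most Fos- and Egr1-positive cells, and classes of 15 to 132 cells limit the other comparisons. The counts in Fos- and Egr1-positive cells are a description, since that link chose the genes. In Fos-positive cells the number of the 9 genes past the limits on the higher side (1) became 0 with DESeq2, which gave Dusp1 no adjusted p. It was 0 with a mean of 50 CPM or more (where Dusp1 was not tested), 2 without a minimum fold change and 0 with cells thinned to 1000 UMIs. Leaving out 1 replicate gave 0 to 1. Of all genes, 3 of 7655 were past the limits on the higher side with DESeq2 and 13 of 3099 at 50 CPM. Without a minimum fold change 42 of 7655 were, with thinning 8, and without 1 replicate 24 to 32. In Egr1-positive cells the count (0) became 1 without a minimum fold change, 1 without macrophage- or monocyte-marked cells and 1 without cells that also carried MHC class II transcripts, an alternative chosen after seeing the data. Leaving out 1 replicate gave 0 to 1, and each time the gene was Btg2. Of all 7655 genes, 12 were past the limits on the higher side without a minimum fold change. Without macrophage- or monocyte-marked cells 9 were, and 7 without the cells with MHC class II transcripts as well. Without 1 replicate 8 to 17 were. In cells marked by Ccl3 and Ccl4 the count (1) became 0 without the filter on low counts, with thinning, with 1 more UMI for the class and with at least 1000 genes. It was also 0 with DESeq2, which gave Dusp1 no adjusted p, and at 50 CPM, where Dusp1 was not tested. It was 2 without a minimum fold change. Leaving out 1 replicate gave 0 to 1, and without replicate 4 the gene called was Ier5. All genes called higher and lower were 47 and 12 of 15579 without the filter on low counts. Of 7654 genes they were 1 and 45 with thinning, 32 and 9 with 1 more UMI and 37 and 8 with at least 1000 genes. They were 16 and 2 with DESeq2, 55 and 14 without a minimum fold change and 36 and 5 of 3099 at 50 CPM. Without 1 replicate they were 18 to 53 and 1 to 34. In interferon-marked cells the count (0) became 1 with thinning and 1 with 1 more UMI (Btg2, lower), and was 0 to 1 without 1 replicate. Of all 7653 genes, 35 were called higher and 162 lower with thinning, and 102 and 14 with 1 more UMI. Without 1 replicate, 76 to 98 were called higher and 1 to 6 lower. The median log2 fold change over all genes was -0.76 with thinning, against -0.026 in the main fit, so Btg2 moved there with the whole fit. In macrophage- or monocyte-marked cells the count (1) became 0 at 50 CPM (where Dusp1 was not tested) and 0 with thinning, and was 1 to 2 without 1 replicate. All genes called higher and lower were 301 and 143 of 3099 at 50 CPM, and 35 and 254 of 7652 with thinning. Without 1 replicate they were 119 to 375 and 32 to 283. With thinning, the median log2 fold change over all genes was -1.10 here and -0.72 in cells marked by Ccl3 and Ccl4. The genes with 1 library apart (4) were 2 with TMM factors and 2 with at least 1000 genes per cell, beside 4.99% and 4.74% of all genes tested. They were 3, without Dusp1, when macrophage- or monocyte-marked cells were left out, beside 4.68%. Causes were not tested beyond the tests an alternative leaves out. All 9 genes stayed highest in replicate 4 under every scaling and cell filter tried, and 8 of 9 (not Zfp36l1) had their highest share of cells there without thinning. No paired analysis was possible because the labels form 1 group, and each class comparison already holds library as a term.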
